A study of Mus musculus with 12 samples.

Results

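The genes described here are 9 transcription factors of the naive pluripotency network outside the Klf family: Tbx3, Nanog, Tfcp2l1, Nr5a2, Nr0b1, Prdm14, Gbx2, Zfp42 and Spic. Each was read from array probe sets annotated to its symbol and to no other gene, and where a gene had several, the brightest of them, by its mean over the 12 arrays, was used. All 9 were measured, by 10 probe sets, among 22180 genes measured by such probe sets, and only Gbx2 had more than 1. The samples were mouse embryonic stem (ES) cells of line K3 on 12 whole-transcript arrays, in 3 groups of 4 arrays, each group made of 2 clones with 2 arrays per clone. WT/mock (clones 5-2 and 5-5) is labelled wild type, KO/mock (clones 8-3 and 8-4) carries a knockout of the ERRb gene Esrrb, and KO/ERRb-wt (clones 12-1 and 12-3) is the knockout transduced with a lentivirus that expresses ERRb. All 3 groups were kept in N2B27, a serum-free medium, with the inhibitors CH99021 (against GSK3) and PD0325901 (against MEK) and the cytokine LIF, and then for 3 days in N2B27 with both inhibitors and doxycycline, for which LIF is not listed. The labels do not say how the mock cells were made or what doxycycline controlled. No clone occurs in more than 1 group, so a difference between groups also holds whatever else sets their clones apart.

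Naive ES cells resemble the preimplantation epiblast, and a network of transcription factors that bind one another's genes keeps them in that state. LIF acts through STAT3 and supports Tfcp2l1 and Gbx2, and Tbx3 through a second arm of its signalling. Inhibition of GSK3 relieves repression by Tcf7l1, which raises Esrrb, Nanog and Tfcp2l1. ERRb is an orphan nuclear receptor whose binding element is shared with Nr5a2, another orphan receptor. Prdm14 represses de novo DNA methyltransferase and FGF receptor genes. Nr0b1 is a receptor-like cofactor without a classical DNA-binding domain, Zfp42 (Rex1) is the zinc finger gene commonly used as a reporter of the naive state, and Spic is an Ets-family factor active in cells held with both inhibitors.

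The DNA before the start sites of 3 of the factors is shown because the results turn on them in different ways: Nanog and Tfcp2l1 were called lower on KO/ERRb-wt arrays, and Zfp42 was called in no comparison. RefSeq (GRCm38.p6) gave promoter windows of 300 bases for 7 of the 9 factors, and the 250 bases upstream of the start are printed 5′ to 3′ on the strand of the gene, for Nanog chr6:122707239-122707488 on the plus strand, for Tfcp2l1 chr1:118627695-118627944 on the plus strand and for Zfp42 chr8:43307010-43307259 on the minus strand. Capitals mark matches to the motifs named in the next paragraph.
Nanog: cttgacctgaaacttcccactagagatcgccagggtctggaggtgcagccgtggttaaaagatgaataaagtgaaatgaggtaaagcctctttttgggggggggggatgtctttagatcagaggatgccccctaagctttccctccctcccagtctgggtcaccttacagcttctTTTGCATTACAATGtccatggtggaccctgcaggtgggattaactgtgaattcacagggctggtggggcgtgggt
Tfcp2l1: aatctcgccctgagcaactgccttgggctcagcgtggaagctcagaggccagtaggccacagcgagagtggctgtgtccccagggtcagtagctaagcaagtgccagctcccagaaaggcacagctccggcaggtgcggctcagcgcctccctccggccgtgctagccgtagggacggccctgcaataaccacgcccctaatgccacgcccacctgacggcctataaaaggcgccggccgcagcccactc
Zfp42: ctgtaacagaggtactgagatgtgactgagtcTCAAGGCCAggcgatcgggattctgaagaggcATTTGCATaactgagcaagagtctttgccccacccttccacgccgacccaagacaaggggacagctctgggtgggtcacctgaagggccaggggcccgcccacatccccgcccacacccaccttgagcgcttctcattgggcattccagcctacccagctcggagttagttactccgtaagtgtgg

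On both strands of the windows, TCAAGGTCA, an element bound by ERRb and Nr5a2, occurred in 0 of the 7 factors and in 0.423% of 32851 windows of all genes. Its core AAGGTCA, which lies inside it, occurred in 0 of the 7 and in 4.72% of windows, and the STAT element TTCCNGGAA in 0 of the 7 and in 1.15%. A variant of the first element, TCAAGGCCA, lay in the Zfp42 window with its first base at -218 from the start, and 0.591% of windows held it. The octamer ATGCAAAT, bound by Pou5f1, lay on the opposite strand of the Zfp42 window with its first base at -186, and 1.74% of windows held it. The composite Sox and Oct element of the Nanog promoter, whose Oct side overlaps the octamer in its letters, lay on the opposite strand at -75 from the first Nanog start, and the 2 windows that held it among all genes were both of Nanog. TCAAGGCCA and the composite element were searched after the sequences had been seen. A match here is a run of letters and not a measured binding site.

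Array medians lay between 5.00 and 5.07 on the log2 scale, and all 9 factors had a mean of at least 6. The single Esrrb probe set did not follow the labels: it read 7.38 to 7.39 on WT/mock, 7.41 to 8.00 on KO/mock and 6.5 to 6.99 on KO/ERRb-wt. The labels give neither the position of the lesion nor the stretch of Esrrb carried by the virus, and the groups are called by their labels throughout. Of 8 ES cell markers, which include Nanog and Zfp42, the mean log2 level was between 10.05 and 10.14 on every array. Dppa5a, at 4.90 to 4.99 in the group means, was the only marker below 6. On KO/mock against WT/mock 0 of the 8 were called. Nanog and Utf1 were called lower on KO/ERRb-wt against either other group, and Sall4 higher against WT/mock. The Sall4 call ended with the mean of the gene's probe sets. The 8 feeder fibroblast markers averaged 4.59 to 4.71, 4.61 to 4.66 and 4.70 to 4.79 on WT/mock, KO/mock and KO/ERRb-wt, 0 of them reached a mean of 6, and 1, Thy1, was called, higher on KO/ERRb-wt than on WT/mock. The 8 markers of formative and primed epiblast averaged 6.55 to 6.77, 6.73 to 6.95 and 6.92 to 7.08, and the 2 of them called were Dnmt3b and Lef1. The 4 measured neuroectoderm markers averaged 5.63 to 5.83, 5.70 to 5.77 and 5.25 to 5.56, so that KO/ERRb-wt lay below both other groups. Of these 4, Sox1 was lower on KO/mock than on WT/mock, Zfp521 on KO/ERRb-wt than on KO/mock, and both on KO/ERRb-wt than on WT/mock. The 6 trophoblast markers averaged 5.54 to 5.80, 5.84 to 5.89 and 5.79 to 5.98, with WT/mock below KO/mock without overlap, and 1 of the 6, Cdx2, was called, higher on KO/ERRb-wt than on WT/mock. The 10 primitive endoderm markers averaged 5.31 to 5.45, 5.37 to 5.49 and 5.4 to 5.44, with 1 higher and 1 lower, 1 and 2, and 1 and 1 called in the 3 comparisons below. Averages were 5.23 to 5.42, 5.41 to 5.52 and 5.4 to 5.63 for 6 mesoderm and definitive endoderm markers and 3.65 to 3.88, 3.77 to 3.95 and 3.81 to 4.03 for 6 genes of the two-cell stage, with 0 called in either list. The part of these lists in the results was not tested. Genes of chromosome 14 with a mean of at least 6 had a median log2 difference of -0.41 for KO/mock minus WT/mock, against 0.03 for other chromosomes. It was -0.06 against -0.04 for KO/ERRb-wt minus KO/mock and -0.48 against -0.01 for KO/ERRb-wt minus WT/mock. On chromosome 14 lie 0 of the 9 factors. In bulk RNA, fewer cells that express a gene and less RNA per cell cannot be told apart.

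Of the 9 factors, the fit called 2 lower and 0 higher on KO/mock than on WT/mock, 4 lower and 0 higher on KO/ERRb-wt than on KO/mock, and 4 lower and 1 higher on KO/ERRb-wt than on WT/mock. Tbx3 and Prdm14 were lower in all 3 comparisons, Nanog and Tfcp2l1 joined them on KO/ERRb-wt, and Nr5a2 was the factor that was higher. Nr0b1, Gbx2, Zfp42 and Spic were called in none. A factor is called where limma's moderated test over 12 arrays, with clone as a random block, gave an adjusted p under 0.05 over all 41345 probe sets. Of all genes, 5.58% were called on KO/mock against WT/mock, 3.47% lower and 2.11% higher. On KO/ERRb-wt against KO/mock, 4.4% were called, 3.17% lower and 1.24% higher, and on KO/ERRb-wt against WT/mock, 20.8% were called, 12% lower and 8.82% higher. Without the genes of chromosome 14 the shares lower and higher were 2.33% and 2.18%, 3.15% and 1.25%, and 11.0% and 9.08% in the 3 comparisons. Among genes with a mean of at least 6, as all 9 had, they were 6.64% and 4.19%, 6.53% and 1.77%, and 23% and 14.9%. The counts from the lists below are to be read beside these shares. The median log2 difference of the 9 factors was 0.03, -0.23 and 0.04 in the 3 comparisons, against 0.00, 0.02 and 0.03 over all genes. The comparisons share arrays with one another, so their calls are not independent. P-values measure the spread between arrays of 2 clones, and with each clone averaged to 1 value, 2 clones against 2, the numbers called were 0, 0 and 4. On those averages 0 genes of the lists named below were called in the first or the second comparison either. In the third, clone averages ended the call of Tfcp2l1. They also ended the calls there of Axin2, Bhmt2, Sardh, Lin28a, Sall4, Utf1, Spry2, Spry4, Myc, Egr1, Triml1, Triml2 and Sulf1.

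**Figure D1:**
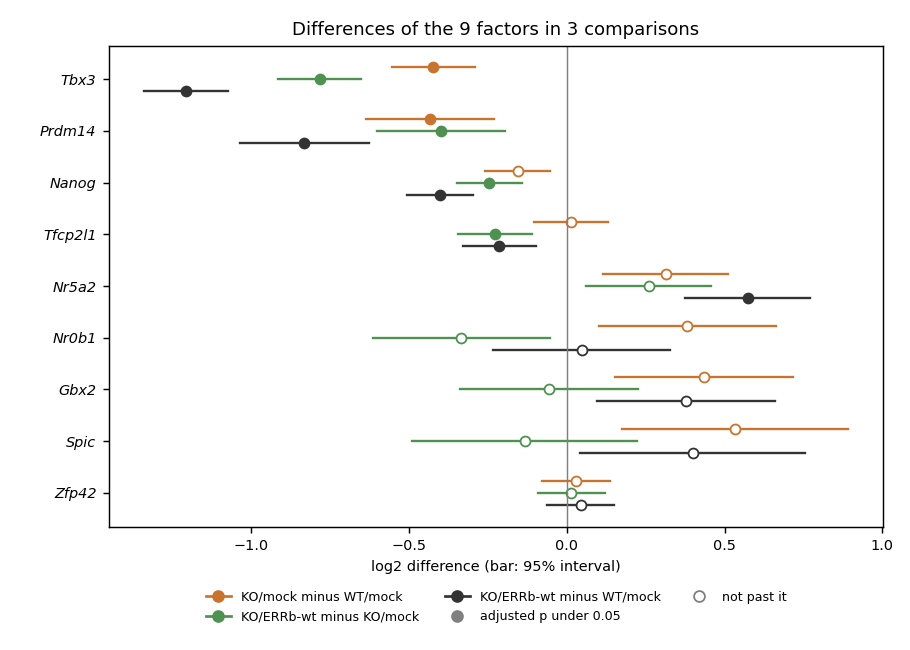
Log2 differences of the 9 factors (x axis) in the 3 comparisons, with 95% intervals of the limma fit as bars. Filled points had an adjusted p under 0.05. All 3 points of Tbx3 and Prdm14 lie left of 0, and the points of Zfp42 lie between 0.01 and 0.04.

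Tbx3, a T-box factor linked to LIF signalling, fell at each step from WT/mock to KO/mock to KO/ERRb-wt. It read 10.10 and 10.00 on the arrays of WT/mock clone 5-2, 10.01 and 9.95 on clone 5-5, 9.61 and 9.63 on KO/mock clone 8-3, 9.60 and 9.53 on clone 8-4, 8.73 and 8.74 on KO/ERRb-wt clone 12-1, and 8.89 and 8.88 on clone 12-3. The 3 groups did not overlap. The group means were 10.02 ± 0.06, 9.59 ± 0.04 and 8.81 ± 0.09 (SD, n = 4 each). KO/mock was lower than WT/mock by a log2 difference of -0.42 ± 0.06 (SE; limma, adjusted p = 0.00228), a ratio of 0.746. KO/ERRb-wt was lower than KO/mock by -0.78 ± 0.06 (adjusted p = 0.000137), a ratio of 0.581, and lower than WT/mock by -1.21 ± 0.06 (adjusted p = 1.46e-06), a ratio of 0.433. In a ranking of all probe sets by p, Tbx3 stood at place 8 of 41345 for KO/ERRb-wt minus KO/mock. Each call held with any 1 array or any 1 clone left out, with adjusted p up to 0.0416. On clone averages the first and the second call ended (adjusted p = 0.153 and 0.129).

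**Figure D2:**
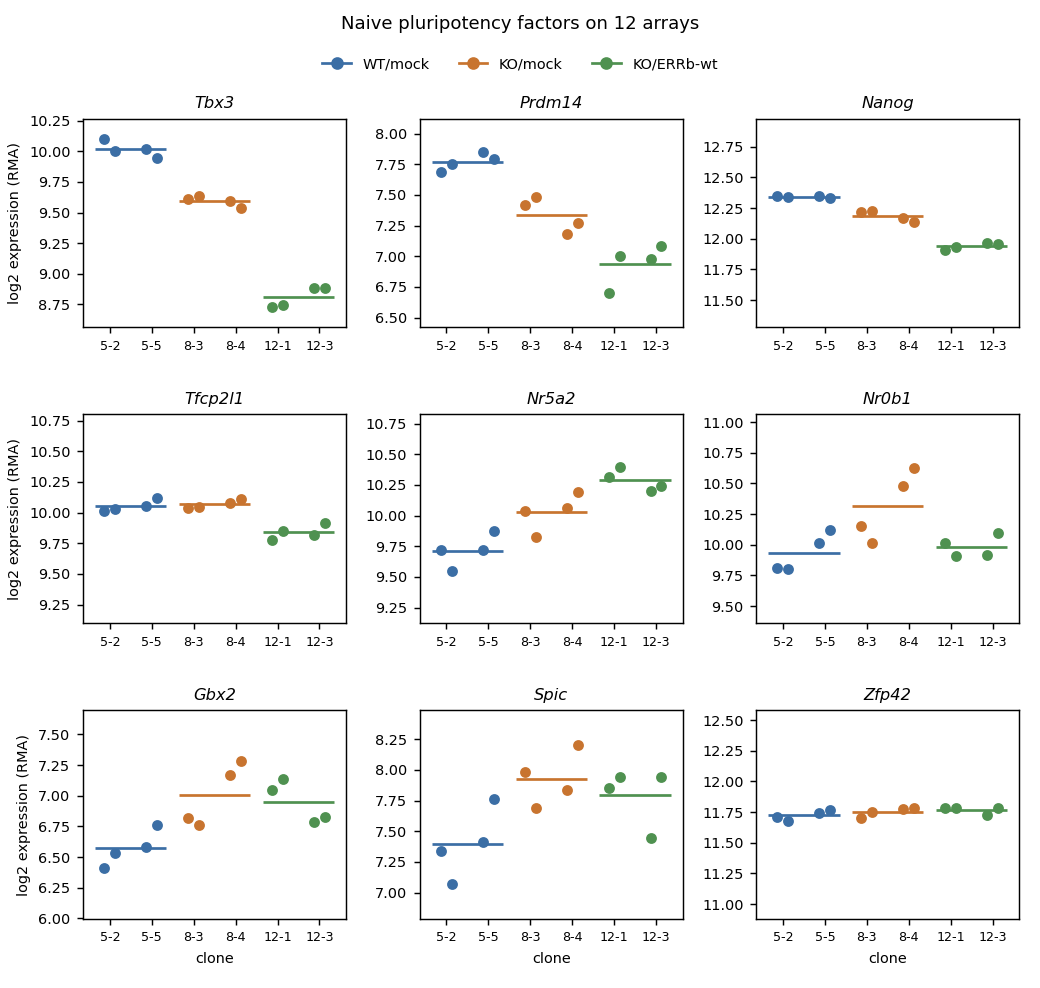
Log2 expression of the 9 factors on each of 12 arrays, by clone (x axis), with a line at the mean of each group of 4 arrays. Every panel spans the same log2 range. The groups of Tbx3 do not overlap, and the arrays of Zfp42 lie between 11.67 and 11.78.

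Tfcp2l1, a CP2-family factor downstream of STAT3, was called lower on KO/ERRb-wt, against either other group. The WT/mock arrays read 10.01 and 10.03 in clone 5-2 and 10.05 and 10.12 in clone 5-5. KO/mock read 10.04 and 10.05 in clone 8-3 and 10.08 and 10.11 in clone 8-4, within the range of WT/mock. KO/ERRb-wt read 9.78 and 9.85 in clone 12-1 and 9.82 and 9.92 in clone 12-3, all below the other 8 arrays. KO/mock minus WT/mock was 0.01 ± 0.05 (SE; limma, adjusted p = 0.947), with a 95% interval of -0.10 to 0.13. KO/ERRb-wt fell against KO/mock by 0.23 ± 0.05 on the log2 scale (adjusted p = 0.0417) and against WT/mock by 0.21 ± 0.05 (adjusted p = 0.0170). The call against KO/mock ended when any 1 array other than WT/mock clone 5-5 replicate 2 was left out, with adjusted p up to 0.102 and log2 differences of -0.25 to -0.21. That against WT/mock ended without clone 5-5 or without clone 12-1, with adjusted p up to 0.0960, and it ended on clone averages as well.

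Gbx2, a homeobox gene that STAT3 induces in ES cells, was measured by 2 probe sets. The brighter one read 6.41, 6.53, 6.58 and 6.76 on WT/mock, 6.82 and 6.76 on KO/mock clone 8-3, 7.17 and 7.28 on KO/mock clone 8-4, 7.05 and 7.13 on KO/ERRb-wt clone 12-1, and 6.79 and 6.83 on KO/ERRb-wt clone 12-3. The KO/ERRb-wt arrays all lay above WT/mock, while 1 KO/mock array lay just below the highest WT/mock array. Neither KO/mock minus WT/mock (0.43 ± 0.13, SE; limma, adjusted p = 0.0961) nor KO/ERRb-wt against WT/mock (0.38 ± 0.13, adjusted p = 0.0718) passed, and their 95% intervals were 0.15 to 0.72 and 0.10 to 0.66. The clones of a group stood far apart: KO/mock clone 8-4 was above clone 8-3 by 0.44 ± 0.09 (SE), and KO/ERRb-wt clone 12-3 below clone 12-1 by a difference of -0.28 ± 0.09, though neither passed between clones (adjusted p = 0.453 and 0.698). Without clone 8-3, KO/mock minus WT/mock was 0.65 (adjusted p = 0.0223), and without clone 8-4 it was 0.22 (adjusted p = 0.532). KO/ERRb-wt against WT/mock stayed at 0.38 and was called when KO/mock clone 8-3 (adjusted p = 0.0299) or clone 8-4 (adjusted p = 0.0284) left the fit. The dimmer probe set, at 5.81 to 6.12 on all arrays, differed by 0.11 ± 0.07, -0.08 ± 0.07 and 0.03 ± 0.07 in the 3 comparisons.

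Of 10 genes linked to STAT3, 3 were called lower and 0 higher on KO/mock than on WT/mock. They were Klf4, a direct target, at -0.47 ± 0.07 (SE; limma, adjusted p = 0.00216), the coregulator gene Bcl3 at -0.70 ± 0.13 (adjusted p = 0.0101) and the kinase gene Jak1 at -0.37 ± 0.08 (adjusted p = 0.0221). Socs3, the feedback inhibitor that STAT3 induces, differed by -0.19 ± 0.10 (adjusted p = 0.371), and Stat3 itself by -0.14 ± 0.05 (adjusted p = 0.157). The median of the 10 was -0.17. The Bcl3 call ended without clone 5-2 or clone 8-4 (adjusted p up to 0.126). With 1 clone left out, 1 to 3 of the 10 were lower. Bcl3 on KO/ERRb-wt minus KO/mock was 0.37 ± 0.13 and did not pass (adjusted p = 0.145). In that comparison 2 of the 10, Klf4 and Jak1, were called lower and 0 higher, with a median of 0.03. The same pair was called against WT/mock, Klf4 at -0.78 ± 0.07 (adjusted p = 2.59e-05) and Jak1 at -0.70 ± 0.08 (adjusted p = 0.000148), with a median of -0.16 over the list. Leaving out single arrays ended the Jak1 call on KO/mock against WT/mock for 6 of 12 arrays (adjusted p up to 0.0767) and on KO/ERRb-wt against KO/mock for 11 of 12 (up to 0.121), and it ended the Klf4 call of the latter comparison for 7 of 12 (up to 0.0736).

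Nanog, the homeobox factor at the centre of the network, read 12.35 and 12.34 on WT/mock clone 5-2 and 12.35 and 12.33 on clone 5-5. KO/mock read 12.22 and 12.23 in clone 8-3 and 12.17 and 12.14 in clone 8-4, and KO/ERRb-wt read 11.91 and 11.94 in clone 12-1 and 11.97 and 11.96 in clone 12-3. The 3 groups did not overlap, and the means were 12.34 ± 0.01, 12.19 ± 0.04 and 11.94 ± 0.03 (SD, n = 4 each). The step from WT/mock to KO/mock was -0.16 ± 0.05 (SE) and did not pass (limma, adjusted p = 0.102, 95% interval -0.26 to -0.05). Nanog fell by 0.25 ± 0.05 from KO/mock to KO/ERRb-wt (adjusted p = 0.0196), a ratio of 0.843, and by 0.40 ± 0.05 from WT/mock to KO/ERRb-wt (adjusted p = 0.000195), a ratio of 0.757. The call against KO/mock ended without KO/mock clone 8-3 replicate 1 (adjusted p = 0.0587) and without its replicate 2 (adjusted p = 0.0573). It ended as well without clone 8-3, clone 12-1 or clone 12-3, with adjusted p up to 0.160.

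Prdm14, a PR-domain zinc finger factor, was lower at both steps. It read 7.69, 7.76, 7.85 and 7.79 on WT/mock, 7.42 and 7.48 on KO/mock clone 8-3, 7.18 and 7.27 on KO/mock clone 8-4, 6.70 and 7.00 on KO/ERRb-wt clone 12-1, and 6.98 and 7.08 on KO/ERRb-wt clone 12-3. No array of one group overlapped another group. KO/mock minus WT/mock was -0.43 ± 0.09 (SE; limma, adjusted p = 0.0238), KO/ERRb-wt against KO/mock gave -0.40 ± 0.09 (adjusted p = 0.0423) and KO/ERRb-wt against WT/mock -0.83 ± 0.09 (adjusted p = 0.000136). The ratios were 0.740, 0.759 and 0.562. The first call ended without WT/mock clone 5-2 replicate 1, clone 5-2 replicate 2 or clone 5-5 replicate 1, and without KO/mock clone 8-4 replicate 1 or 2, with adjusted p up to 0.0728. The second ended when any 1 array other than KO/mock clone 8-4 replicate 1 was left out, with adjusted p up to 0.110 and log2 differences of -0.45 to -0.32. The third held without any 1 array or clone.

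Tbx3, Nanog and Prdm14 were the 3 factors whose arrays stepped down without overlap at both steps, every WT/mock array above every KO/mock array and every KO/mock array above every KO/ERRb-wt array. Of all genes, 446 had that order, or 2.01%. Without regard to the other step, 3 factors did not overlap between KO/mock and WT/mock, 5 between KO/ERRb-wt and KO/mock, and 6 between KO/ERRb-wt and WT/mock, against 15.9%, 17% and 28.5% of all genes.

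Of 5 genes known to be repressed through Prdm14 in ES cells, 3 were called higher and 0 lower on KO/mock than on WT/mock. Dnmt3l, the cofactor of the de novo methyltransferases, rose by 0.90 ± 0.10 on the log2 scale (SE; limma, adjusted p = 0.000448), Dnmt3b by 0.66 ± 0.12 (adjusted p = 0.00906) and the FGF receptor gene Fgfr2 by 0.62 ± 0.12 (adjusted p = 0.0125). Dnmt3l and Dnmt3b rose again from KO/mock to KO/ERRb-wt, each by 0.59 (adjusted p = 0.00943 and 0.0224), while Fgfr2 differed by 0.40 ± 0.12 (adjusted p = 0.0949). Against WT/mock, KO/ERRb-wt was higher by 1.49 ± 0.10, 1.25 ± 0.12 and 1.02 ± 0.12 for Dnmt3l, Dnmt3b and Fgfr2 (adjusted p = 5.5e-06, 4.68e-05 and 0.000172). Dnmt3a differed by 0.20, -0.09 and 0.12 and Fgfr1 by 0.12, 0.10 and 0.23 in the 3 comparisons, and neither passed in any. The medians of the 5 genes were 0.62, 0.40 and 1.02. The Dnmt3b call from KO/mock to KO/ERRb-wt ended without any 1 array of KO/mock clone 8-3 or of KO/ERRb-wt clone 12-3 (adjusted p up to 0.0650). On KO/mock against WT/mock, the Dnmt3b call ended without clone 5-2 or clone 8-4 (adjusted p up to 0.126). That of Fgfr2 ended without clone 8-3 or clone 8-4 (up to 0.0908), and that of Dnmt3l held without any 1 clone. From KO/mock to KO/ERRb-wt the Dnmt3l call ended without clone 8-3 or clone 12-3 (up to 0.114). With 1 clone left out, 1 to 3 of the 5 were higher on KO/mock than on WT/mock. Fgfr2 was dim, with group means of 4.41, 5.03 and 5.43.

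**Figure D3:**
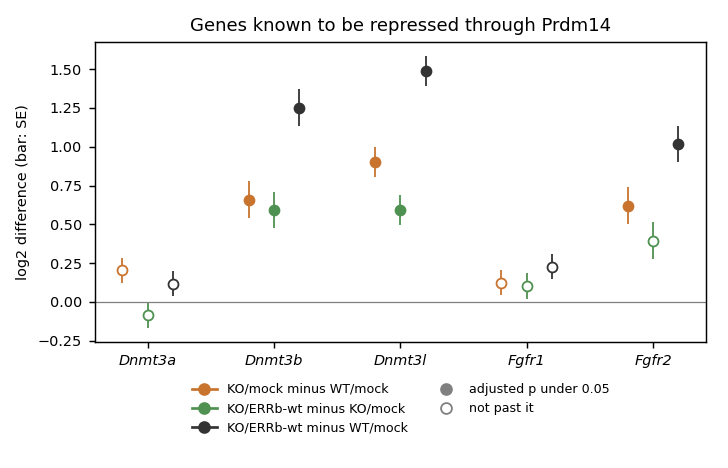
Log2 differences (y axis, bars SE of the limma fit) of 5 genes known to be repressed through Prdm14, in the 3 comparisons. Filled points had an adjusted p under 0.05. Dnmt3b, Dnmt3l and Fgfr2 lie at 0.40 or more in each comparison, and Dnmt3a and Fgfr1 between -0.09 and 0.23.

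Nr5a2, the orphan receptor that shares its element with ERRb and can act at the Pou5f1 gene, was the factor with rising values. WT/mock read 9.72 and 9.55 in clone 5-2 and 9.72 and 9.87 in clone 5-5. KO/mock read 10.03 and 9.83 in clone 8-3 and 10.06 and 10.19 in clone 8-4, with 1 array below the highest of WT/mock. KO/ERRb-wt read 10.31 and 10.40 in clone 12-1 and 10.20 and 10.24 in clone 12-3, above all arrays of both other groups. The means were 9.71 ± 0.13, 10.03 ± 0.15 and 10.29 ± 0.09 (SD, n = 4 each). KO/ERRb-wt was above WT/mock by 0.57 ± 0.09 (SE; limma, adjusted p = 0.00125), a ratio of 1.49. The parts of that difference did not pass by themselves: KO/mock minus WT/mock was 0.31 ± 0.09 (adjusted p = 0.0859, 95% interval 0.12 to 0.51) and KO/ERRb-wt against KO/mock gave 0.26 ± 0.09 (adjusted p = 0.149, 95% interval 0.06 to 0.46). The first of these was called without WT/mock clone 5-5 replicate 2, at 0.37 (adjusted p = 0.0490), and without KO/mock clone 8-3 replicate 2, at 0.38 (adjusted p = 0.0337). The difference between KO/ERRb-wt and WT/mock was called with any 1 array or clone left out, with adjusted p up to 0.0207, and on clone averages. Pou5f1 itself differed by 0.13, 0.09 and 0.22 in the 3 comparisons, none of which passed.

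Nr0b1 (Dax1), an X-linked gene, was highest in 1 clone. It read 9.81 and 9.80 on WT/mock clone 5-2, 10.01 and 10.12 on clone 5-5, 10.15 and 10.01 on KO/mock clone 8-3 and 10.48 and 10.63 on KO/mock clone 8-4. KO/ERRb-wt read 10.01 and 9.91 in clone 12-1 and 9.91 and 10.10 in clone 12-3, inside the range of WT/mock. Clone 8-4 lay above clone 8-3 by 0.47 ± 0.10 (SE), which was larger than any difference of this gene between group means. That gap did not pass between clones (limma, adjusted p = 0.462), where the fit called 0 genes between the WT/mock clones, 2 of 22180 between the KO/mock clones (0.00902%) and 0 between the KO/ERRb-wt clones. KO/mock minus WT/mock was 0.38 ± 0.13 (adjusted p = 0.144, 95% interval 0.10 to 0.66), KO/ERRb-wt against KO/mock gave -0.33 ± 0.13 (adjusted p = 0.186) and KO/ERRb-wt against WT/mock gave 0.05 ± 0.13 (adjusted p = 0.857). Without clone 8-3, KO/mock minus WT/mock was 0.62 (adjusted p = 0.0173), and without clone 8-4 it was 0.15 (adjusted p = 0.646).

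Because GSK3 was inhibited in all groups, 9 measured genes linked to GSK3 and beta-catenin were read beside the receptors. On KO/mock against WT/mock, 2 of the 9 were called higher and 0 lower, Lef1, a transcription factor that carries beta-catenin, at 0.96 ± 0.14 (SE; limma, adjusted p = 0.00234) and Sp5, a direct target, at 0.59 ± 0.15 (adjusted p = 0.0445). The Sp5 call ended without any 1 of 9 of the 12 arrays (adjusted p up to 0.124). From KO/mock to KO/ERRb-wt, 2 were higher and 0 lower, Notum, a secreted Wnt inhibitor, at 0.84 ± 0.11 (adjusted p = 0.00344) and the repressor Tcf7l1 at 0.55 ± 0.11 (adjusted p = 0.0212). The Notum call ended without clone 8-3 (adjusted p = 0.0562). The Tcf7l1 call ended without KO/mock clone 8-3 replicate 1 or 2 or KO/ERRb-wt clone 12-3 replicate 2 (adjusted p up to 0.0618). Against WT/mock, 7 of the 9 were higher on KO/ERRb-wt and 0 lower. Of all genes with a mean of at least 6, as all 9 had, 14.9% were higher and 23% lower. Among the 7 were Sp5 at 1.10 ± 0.15 (adjusted p = 0.000399), Lef1 at 0.90 ± 0.14 and the feedback gene Axin2 at 0.47 ± 0.08 (adjusted p = 0.00190). The medians of the 9 were 0.23, 0.15 and 0.61. With 1 clone left out, the counts higher ran from 1 to 4, 0 to 3 and 5 to 7 in the 3 comparisons.

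Zfp42 did not pass in any comparison. It read 11.67 to 11.76 on WT/mock, 11.70 to 11.78 on KO/mock and 11.73 to 11.78 on KO/ERRb-wt, and the 3 groups overlapped. The log2 differences were 0.03 ± 0.05, 0.01 ± 0.05 and 0.04 ± 0.05 (SE; limma, adjusted p = 0.856, 0.911 and 0.620). Their 95% intervals in this fit were -0.08 to 0.14, -0.09 to 0.12 and -0.06 to 0.15, and so reached 0.15 at most. The fit counts arrays of a clone almost as independent, so these intervals set no firm bound over other clones. As estimates, the called decreases of Tfcp2l1 and Nanog were larger than that reach of 0.15. The 95% intervals of Tfcp2l1, -0.34 to -0.11 against KO/mock and -0.33 to -0.10 against WT/mock, reached inside it. That of Nanog did so against KO/mock (-0.35 to -0.14) and not against WT/mock (-0.50 to -0.30). Differences between factors were not tested.

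Spic, the Ets-family factor, had the highest SE of the 9 factors in the fit. WT/mock read 7.34 and 7.07 in clone 5-2 and 7.41 and 7.77 in clone 5-5, KO/mock 7.98 and 7.69 in clone 8-3 and 7.84 and 8.20 in clone 8-4, and KO/ERRb-wt 7.85 and 7.94 in clone 12-1 and 7.44 and 7.94 in clone 12-3. All groups overlapped. The log2 differences were 0.53 ± 0.16, -0.13 ± 0.16 and 0.40 ± 0.16 (SE; limma, adjusted p = 0.107, 0.713 and 0.132), and the first had a 95% interval of 0.17 to 0.89. The arrays of clone 12-3 were the lowest and the highest of KO/ERRb-wt. Both comparisons with WT/mock were called without WT/mock clone 5-5 replicate 2, at 0.66 for KO/mock and 0.52 for KO/ERRb-wt (adjusted p = 0.0353 and 0.0399), and without clone 5-5 as a whole, at 0.72 and 0.59 (adjusted p = 0.0431 and 0.0449). Of 5 betaine and one-carbon genes linked to Spic in cells held with both inhibitors, 0 were called on KO/mock against WT/mock and 0 on KO/ERRb-wt against KO/mock. Against WT/mock 2 were higher on KO/ERRb-wt and 0 lower, Bhmt2 at 0.47 ± 0.13 (adjusted p = 0.0346) and Sardh at 0.30 ± 0.09 (adjusted p = 0.0460). Both were dim, with group means of 4.76 to 5.37, and left-out arrays ended the 2 calls for 6 and 10 of the 12 arrays (adjusted p up to 0.0881 and 0.126).

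The other naive genes moved in both directions. Of 20 such genes outside the 9, 1 was higher and 5 were lower on KO/mock than on WT/mock, with a median of 0.07. The lower genes were the adhesion gene Jam2 at -1.02 ± 0.11 (SE; limma, adjusted p = 0.000447), the imprint regulator Zfp57 at -0.44 ± 0.06 (adjusted p = 0.00209), Klf4, Klf5 at -0.45 ± 0.05 (adjusted p = 0.000840) and the growth factor gene Fgf4 at -0.35 ± 0.06 (adjusted p = 0.00393). Klf5 lies on chromosome 14. Dppa3, a maternal factor gene, was the 1 that was higher, at 0.78 ± 0.13 (adjusted p = 0.00534). From KO/mock to KO/ERRb-wt, 1 was higher and 7 were lower, with a median of -0.10, and among the lower were the Akt cofactor gene Tcl1 at -0.56 ± 0.09 (adjusted p = 0.00633), Nlrp4f at -0.58 ± 0.09 (adjusted p = 0.00813) and Zfp57 at -0.39 ± 0.06 (adjusted p = 0.00813). With 1 array left out that comparison gave 4 to 7 lower and 0 to 1 higher, and with 1 clone left out 1 to 7 lower and 0 to 1 higher. The demethylase gene Tet2 was among the 7 at -0.56 ± 0.13 (adjusted p = 0.0442), and its call ended without any 1 array other than KO/mock clone 8-3 replicate 1 (adjusted p up to 0.104). Klf5 was another, and its call ended without KO/mock clone 8-3 replicate 1 or 2 or KO/ERRb-wt clone 12-3 replicate 2 (adjusted p up to 0.0556). Tcl1 on KO/mock against WT/mock was 0.22 ± 0.09 and did not pass (adjusted p = 0.209). On KO/ERRb-wt against WT/mock, 5 were higher and 9 lower, with a median of -0.08. Cdh1, the epithelial cadherin gene, differed by 0.00, 0.03 and 0.03 and passed in none.

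Of 7 measured core factors, which are shared by naive and primed cells, 1 was higher and 0 lower on KO/mock than on WT/mock, 0 and 1 on KO/ERRb-wt than on KO/mock, and 2 and 1 on KO/ERRb-wt than on WT/mock. The 1 on KO/mock was Lin28a, an RNA-binding protein gene, at 0.58 ± 0.14 (SE; limma, adjusted p = 0.0377). That call held without either array of WT/mock clone 5-5, without KO/mock clone 8-3 replicate 1 or KO/ERRb-wt clone 12-1 replicate 2, ended for the other 8 of 12 arrays (adjusted p up to 0.108) and for every clone but 5-5 (up to 0.301), and the count ran from 0 to 2. Lin28a rose by 0.76 ± 0.14 from WT/mock to KO/ERRb-wt (adjusted p = 0.00274), Sall4 by 0.37 ± 0.07 (adjusted p = 0.00276), and Utf1 fell by 0.27 ± 0.05 (adjusted p = 0.00475). The Sall4 call ended with the mean of the gene's probe sets, and all of these calls ended on clone averages. Sox2 differed by -0.05, -0.02 and -0.07 and passed in none. Of 9 measured genes linked to MEK and ERK, 0 were higher and 1 lower, 1 higher and 0 lower, and 3 higher and 1 lower in the 3 comparisons. The feedback inhibitor gene Spry2 was the 1 lower, at -0.43 ± 0.09 on KO/mock and -0.45 ± 0.09 on KO/ERRb-wt against WT/mock (limma, adjusted p = 0.0203 and 0.00534). Its call on KO/mock ended without either array of WT/mock clone 5-2 or KO/mock clone 8-3 replicate 1 (adjusted p up to 0.0603). The chromosome of Spry2 was not looked up, and genes of chromosome 14 had medians of -0.41 and -0.48 in the same comparisons with WT/mock. Egr1, an early ERK target, was the 1 higher on KO/ERRb-wt against KO/mock, at 0.27 (adjusted p = 0.0450), and that call ended without any 1 array other than KO/mock clone 8-4 replicate 1 or KO/ERRb-wt clone 12-3 replicate 2 (adjusted p up to 0.105), and with median centring, quantile normalization or the trended robust prior. Against WT/mock, Spry4 was higher on KO/ERRb-wt by 0.83 ± 0.18 (adjusted p = 0.00872), a call that ended without clone 5-2 or clone 12-1 (up to 0.0974). The count of higher genes there ran from 1 to 4 with 1 array left out, and the calls of Myc and Egr1 ended for 7 and 4 of 12 arrays (up to 0.109 and 0.0683).

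Genes related to the factors, most by a shared DNA-binding domain, were read next. Nr0b1, without a classical one, was paired with Nr0b2. Of 24 measured paralogues, 2 were higher and 0 lower on KO/mock than on WT/mock, 1 and 1 on KO/ERRb-wt than on KO/mock, and 3 and 2 on KO/ERRb-wt than on WT/mock, with medians of 0.01, 0.04 and 0.06. Only 10 of the 24 had a mean of at least 6. With 1 array left out the counts higher were 1 to 2, 0 to 1 and 2 to 3. Among the relatives of Tfcp2l1, Grhl2 rose by 0.74 ± 0.12 on KO/mock (SE; limma, adjusted p = 0.00547) and by 1.25 ± 0.12 on KO/ERRb-wt against WT/mock (adjusted p = 6.03e-05), Grhl3 fell by 0.57 ± 0.07 from KO/mock to KO/ERRb-wt (adjusted p = 0.00209) and Tfcp2 fell by 0.58 ± 0.09 from WT/mock to KO/ERRb-wt (adjusted p = 0.000946). Prdm1, a relative of Prdm14, was higher by 0.62 ± 0.10 on KO/ERRb-wt against WT/mock (adjusted p = 0.00180). The call of Prdm1 on KO/mock against WT/mock, at 0.47, ended without WT/mock clone 5-2 replicate 1 or clone 5-5 replicate 1, either array of KO/mock clone 8-3, or KO/mock clone 8-4 replicate 2 (adjusted p up to 0.0953). The call of Grhl2 on KO/ERRb-wt against KO/mock, at 0.50, ended without any 1 array other than replicate 2 of WT/mock clone 5-2 or of clone 5-5 (up to 0.124), and its call on KO/mock against WT/mock ended without clone 8-4 (0.0830). None of the 8 measured T-box relatives of Tbx3 was called. The Tbx5 gene beside Tbx3 read 3.80 to 3.95 in the group means, and the T-box gene Mga differed by 0.01, 0.11 and 0.12. The other ERR genes, Esrra and Esrrg, were called in 0 of the 3 comparisons, with Esrra at 0.02, -0.07 and -0.05.

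The genes on either side of each factor were read beside it. There were 36 neighbours, the nearest 2 measured genes on each side, and 18 of them had a mean of at least 6. On KO/mock against WT/mock, 2 were called higher and 1 lower, beside 2.11% and 3.47% of all genes. On KO/ERRb-wt against KO/mock, 2 were higher and 1 lower, beside 1.24% and 3.17%. On KO/ERRb-wt against WT/mock, 7 were higher and 9 lower, beside 8.82% and 12%. Beside Tbx3 on chromosome 5, the non-coding gene Tbx3os2 differed by -0.49 ± 0.17, -0.74 ± 0.17 and -1.23 ± 0.17 (SE; limma, adjusted p = 0.147, 0.0381 and 0.000489), and its start lies 14.6 kb from that of Tbx3. The middle call ended for 7 of 12 left-out arrays (adjusted p up to 0.102). The labels do not say whether the probes keep the 2 transcripts apart. On chromosome 6, Dppa3 lay 81.1 kb from Nanog and went the opposite way, at 0.78 ± 0.13, 0.59 ± 0.13 and 1.37 ± 0.13 (adjusted p = 0.00534, 0.0304 and 4.23e-05), and the middle call ended for 6 of 12 left-out arrays (adjusted p up to 0.0816). Slc2a3, a glucose transporter gene 20.3 kb on the other side of Nanog, differed by -0.24, -0.25 and -0.49, of which the last passed (adjusted p = 0.000320). The 2 neighbours on one side of Zfp42, Triml1 and Triml2, fell on KO/ERRb-wt against WT/mock by 0.28 ± 0.05 and 0.25 ± 0.07 (adjusted p = 0.00433 and 0.0223), where Zfp42 did not pass. The Triml2 call ended without either array of WT/mock clone 5-2 or KO/ERRb-wt clone 12-1 replicate 1 (adjusted p up to 0.0669). Beside Prdm14, Ncoa2 and Tram1 lay between -0.07 and 0.03 in the 3 comparisons and Sulf1 rose by 0.36 ± 0.06 on KO/ERRb-wt against WT/mock (adjusted p = 0.00139).

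**Figure D4:**
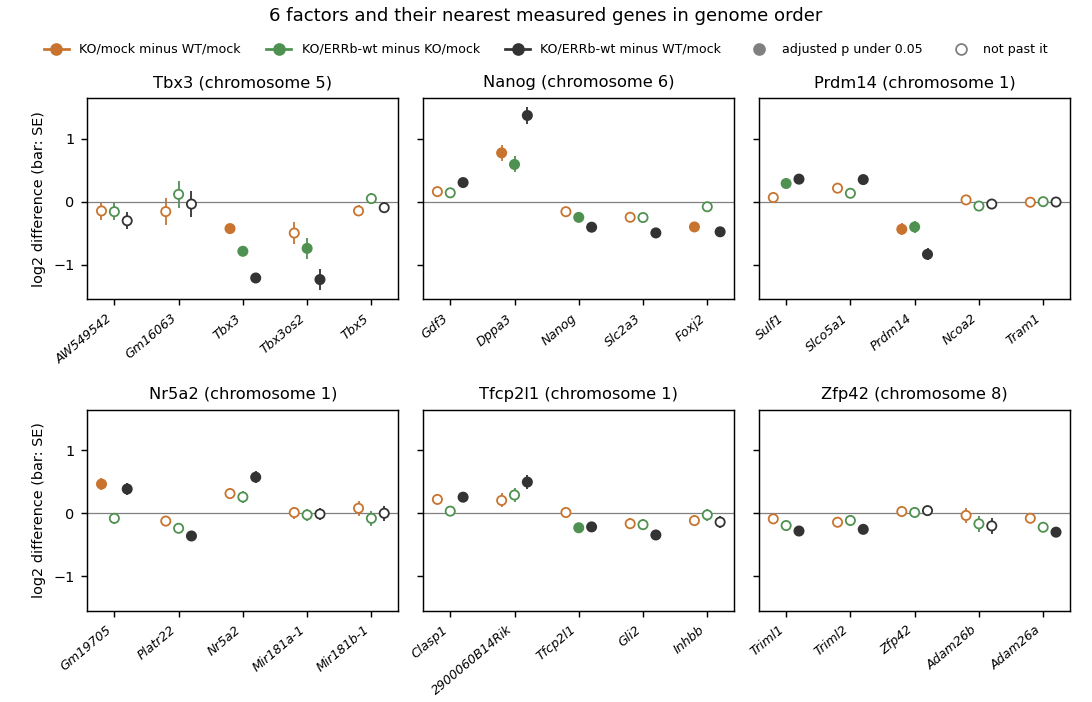
Log2 differences (y axis, bars SE of the limma fit) of 6 factors, in the middle of each panel, and the 2 nearest measured genes on each side in genome order. Filled points had an adjusted p under 0.05. Tbx3os2 lies as low as Tbx3, and Dppa3 lies above 0.5 in the panel where Nanog lies below 0.

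The genes whose profile over the 12 arrays came closest to each called factor were found by the root-mean-square log2 difference after each gene was centred on its own mean, over 9122 other protein-coding genes with a mean of at least 6, predicted models and olfactory and vomeronasal receptor genes left out. For Tbx3 they were Nup62cl at 0.0896, B3gnt5 at 0.10 and the cohesin gene Stag3 at 0.104. For Nanog they were the helicase gene Ddx19b at 0.0281, alpha-catenin (Ctnna1) at 0.0384 and Tpm4 at 0.0392, and for Prdm14 they were Klf4 at 0.0836, Cmtm7 at 0.0910 and Cdyl2 at 0.0929. Nr5a2 came closest to Axin2 at 0.0609, Tspan6 at 0.0687 and Ddx51 at 0.0710, and Tfcp2l1 to Mpp1 at 0.0281, the cohesin gene Rad21 at 0.0431 and the checkpoint kinase gene Chek1 at 0.0436. The distances follow the size of each factor's own spread, so they are not compared between factors. These genes were picked as the closest of many, so their likeness is a description with no test.

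**Figure D5:**
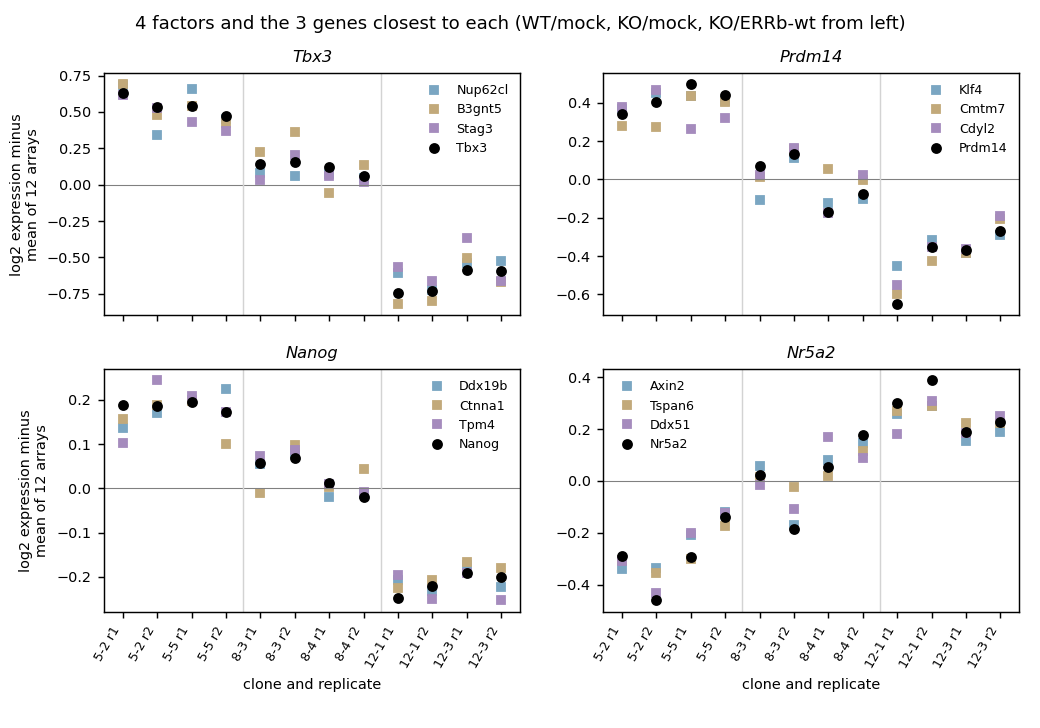
Log2 expression minus the mean of 12 arrays (y axis, with its own scale in each panel) for 4 factors (black points) and the 3 genes closest to each (coloured squares), by array. Grey lines part WT/mock, KO/mock and KO/ERRb-wt. The profiles of Tbx3, Prdm14 and Nanog step down from left to right and that of Nr5a2 goes up.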

How the data were processed

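Total RNA from the 12 samples was labelled with biotin and hybridised to Affymetrix mouse arrays, per the labels. The deposited table holds log2 expression values, 1.59 to 13.57, that the authors made by RMA. The submitters' processing notes name Affymetrix Expression Console. Software versions and the array annotation's build were not given in the sources used here. The RMA step brings arrays to 1 distribution, so a shift shared by most genes would not show. Of 41345 probe sets, 23521 had 1 gene symbol, 1814 several and 16010 none listed.

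Groups were compared with limma 3.58.1 in R 4.3.3 (statmod 1.5.0), with 3 groups and 12 arrays. Clones were treated as random blocks, with a consensus correlation of 0.0286 for all probe sets. At that value arrays of a clone counted almost as independent, and no call of a factor changed without the block. All tests were two-sided, with Benjamini-Hochberg adjustment over all probe sets, at a threshold of 0.05. Arrays of a clone are called biological replicates in the labels, without saying whether cultures were separate. Replicate numbers 1 and 2 run within clones and mark no shared batch in the labels. Array number limits the precision. Data were simulated for KO/mock against WT/mock over 41345 probe sets, with arrays drawn independently from the spread within clones and no difference between clones. On them 52% of log2 changes of 0.5 and 84% of changes of 1 were recovered, and 7.483% of calls were false. These shares leave out the spread between clones.

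The 9 factors and all lists were chosen with earlier results of these data known. Named context genes are up to 4 of a list with the smallest p, members contrasted with them, neighbours in RefSeq order and the 3 closest profiles. Cdh1, Dppa5a, Fgf4, Tet2, Thy1, Cdx2, Sox1, Zfp521, Sox2, Socs3 and Mga were named after their values were seen. Promoters came from RefSeq GRCm38.p6. Protein sequences were not used here. Alternatives were no clone block, clone averages, a replicate block, 2 groups only, no dim probe sets, median centring, quantile normalization, array weights, a trended robust prior, the mean of a gene's probe sets, repeated rows counted once, and single arrays or clones left out. The shares without chromosome 14 were added after seeing the data.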

Additional observations from a re-analysis of the deposited data

Results flagged for a closer look

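Of 27 sets of 4 arrays, 1 per factor and group, 1 held an array far from the others. Zfp42 on KO/ERRb-wt clone 12-3 replicate 1 read 11.73 on the log2 scale, and the other 3 arrays of that group read 11.78, so that its gap to the nearest was 0.947 of the whole range. The test used flags about 1 in 20 such sets by chance.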

How the results depend on the processing

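Each count is the number of the 9 factors called for KO/mock minus WT/mock, KO/ERRb-wt minus KO/mock and KO/ERRb-wt minus WT/mock, and was 2, 4 and 5 as reported. It was 0, 0 and 4 on clone averages, where only 2 values a group remain, 2, 2 and 5 with the replicate block, 2, 1 and 6 with only the 2 groups compared, 5, 4 and 6 with dim probe sets left out, 2, 2 and 6 with quantile normalization, 4, 4 and 5 with the trended robust prior and 4, 4 and 6 with the mean of a gene's probe sets. It stayed at 2, 4 and 5 with no clone block, median centring, array weights and repeated rows counted once. With 1 array left out the counts ran from 1 to 4, 1 to 3 and 5 to 6, and with 1 clone left out from 1 to 4, 1 to 3 and 4 to 6. The replicate block ended the KO/ERRb-wt minus KO/mock calls of Tfcp2l1 (adjusted p = 0.0523) and Prdm14 (adjusted p = 0.0501) and no other call of a factor. The numbers do not pair the samples: over 15 pairs of the 6 clones, array deviations correlated at -0.0433 to 0.141, above 0.1 in 1 pair.

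The factors called higher or lower with dim probe sets left out and not as reported were Nanog (adjusted p = 0.0206), Nr5a2 (0.0375) and Gbx2 (0.0398) for KO/mock minus WT/mock, and Gbx2 for KO/ERRb-wt minus WT/mock (0.0333), with fewer probe sets tested. Signs turned in differences near 0 that passed under neither setting. Zfp42 in KO/ERRb-wt minus KO/mock was -0.0135 with median centring, Tfcp2l1 in KO/mock minus WT/mock was -0.0096 and Gbx2 in KO/ERRb-wt minus KO/mock 0.0015 with quantile normalization. With 1 array left out, Zfp42 in KO/ERRb-wt minus KO/mock ran from -0.0025 to 0.0281, Tfcp2l1 in KO/mock minus WT/mock from -0.00076 to 0.0361 and Gbx2 in KO/ERRb-wt minus KO/mock from -0.14 to 0.03. With 1 clone left out these 3 ran from -0.0134 to 0.0422, -0.0193 to 0.0466 and -0.27 to 0.16, Zfp42 in KO/mock minus WT/mock from -0.0011 to 0.0600 and Nr0b1 in KO/ERRb-wt minus WT/mock from -0.0827 to 0.18. The cause was not tested. No background level comes with the values, which limits what dim probe sets show.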
